A study of Secale cereale x Triticum turgidum subsp. durum with 48 samples.

Results

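In triticale, a hybrid cereal of wheat and rye parentage, 50 of the 61115 probe sets tested on a wheat GeneChip were read higher in endosperm than in every other sample by at least 1 log2 unit, a 2-fold margin. They were selected on that margin: the lowest of the 3 endosperm arrays had to lie at least 1 above the highest of the other 45 arrays. The array holds 61290 probe sets, and its controls and reporters were not tested. The distance between those arrays is called the gap below, and the 50 are called members and numbered by it, so that member 1 has the widest gap. Their excess in endosperm is therefore a description and carries no test, whereas their pattern over the other 15 groups was not used to choose them, apart from the ceiling that the gap sets on each array.

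The 48 arrays each held RNA of 1 biological replicate, in 16 groups. Seeds of the cultivar AC Certa at the soft dough stage, Zadoks stage 85, had been dissected into 5 tissues: endosperm (n = 3), embryo with its scutellum (n = 3), crease (the vascular bundle of the ventral groove, freed of most seed coat, n = 3), pericarp (the seed coat layer that lies on the endosperm, n = 2) and epiderm (the outer layer of the seed coat, n = 2). The 11 vegetative groups were AC Certa stem internode at stages 21, 45, 59 and 75, AC Certa leaf at stages 13 and 23, AC Certa flag leaf at stages 49, 75 and 85, and root and coleoptile of 7-day seedlings of the cultivar AC Alta at stage 7. Flag leaf at stage 49 had 5 arrays and every other vegetative group had 3. No treatment was given, and plants grew in a chamber with 16 hours of light at 18 °C and 8 hours of darkness at 15 °C. Per the labels, endosperm, embryo and pericarp RNA was extracted with guanidine hydrochloride, crease, epiderm, leaf and stem RNA on columns, and root and coleoptile RNA by another guanidine salt with caesium chloride. All RNA was amplified in a pair of cycles before labelling. How many seeds or plants each replicate pooled is not given in the sources used here, so a p-value covers the spread between these samples only, which may be technical.

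Cereal endosperm is the storage tissue of the grain. Its starchy cells fill with starch and with storage and defence proteins during grain filling, and it is bounded outside by the aleurone, which is also endosperm by origin, and then by the maternal seed coat. Pericarp and epiderm belong to that maternal coat, the crease bundle delivers sugars and amino acids to the grain, and the embryo is the other product of double fertilisation. None of the 50 members has a gene name in the annotation used here, which names 1273 of the tested probe sets, 1254 of them only by a locus number. Members are therefore described by rank, by the tissues in which they were read, and by the parts of their IDs that they share.

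The values are log2 signals normalised by RMA, on which 1 unit is a doubling. Array medians lay between 4.87 and 5.03. The 95th percentile of the reporter probe sets, which are made for foreign genes, was 5.99 and serves here as the background level; each array had 32.4% to 35.2% of the tested probe sets above it. Correlations across probe sets were 0.946 or more between arrays of a group, 0.9828 to 0.9876 among the endosperm arrays and 0.9858 between the pericarp arrays, and no array was identical to another.

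One gene that is known in wheat for its product in starchy endosperm could be followed. THI1.1, which encodes a purothionin, an antimicrobial protein of the grain, was read on 1 of its probe sets at 13.9, 13.88 and 13.29 in endosperm. The same probe set gave 13.79 and 13.67 in pericarp, 14.13 and 13.33 in epiderm, and 14.47, 14.52 and 14.42 in crease. Endosperm thus did not stand above the seed coat layers or the crease on this probe set. It was clear of the embryo (7.17, 8.22 and 9.13) and of the vegetative groups (means from 3.39 to 4.30). The other THI1.1 probe set was also highest in crease, with means of 14.06 there, 12.5 in epiderm, 12.40 in endosperm and 12.31 in pericarp. Both probe sets carry ID suffixes that mark shared or cross-binding transcripts, so their signal may not come from THI1.1 alone. THI1.2, a related purothionin gene, was above background in crease (7, 7.08 and 7.46) and averaged 4.37 in endosperm, below background. Whether endosperm remained on the dissected coat and crease was not tested. In these bulk samples, fewer cells of a type and less RNA per cell cannot be told apart.

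All 50 members were above background on all 3 endosperm arrays, the lowest value being 6.84. Their endosperm means ran from 7.28 to 13.83 with a median of 10.26. Gaps ran from 6.31 down to 1.01 with a median of 1.5; 14 members had a gap of at least 2 and 25 had one under 1.5. The selection therefore has no natural edge. The last members inside it, ranks 48, 49 and 50, had gaps of 1.07, 1.05 and 1.01. The nearest probe sets outside had 0.99, 0.96 and 0.96. The nearest of these was dim (5.51, 5.37 and 6.82 in endosperm, against at most 4.38 elsewhere) and the other two were bright, with endosperm values of 13.88, 13.71 and 13.86 for the brighter.

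**Figure D1:**
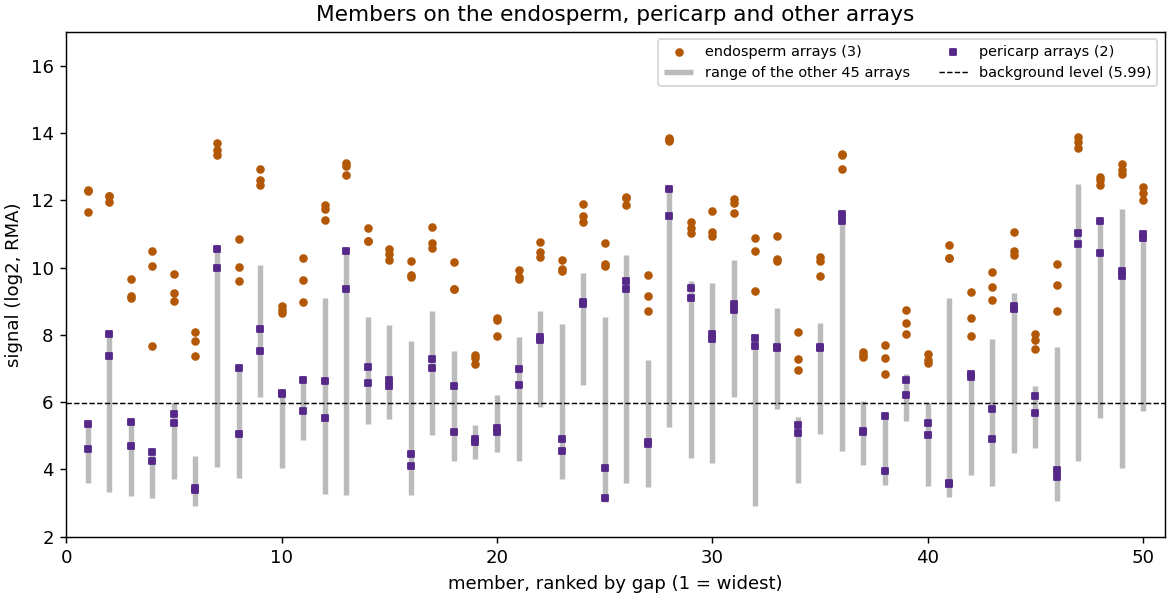
Signal (log2, RMA) of the 50 members, ordered by gap, on each of the 3 endosperm and 2 pericarp arrays, with a grey bar for the range of the 45 arrays other than endosperm and a dashed line at the background level of 5.99. The endosperm points lie above the bars by construction, by 6.31 for member 1 and by 1.01 for member 50, and pericarp sits at the top of the bar for some members and near its bottom for others, such as member 41 at 3.57 and 3.61.

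Member 1 (Ta.4275.1.S1_at) was read at 11.65, 12.27 and 12.32 in endosperm and at no more than 5.34 on any other array. Its mean was 12.08 ± 0.373 (SD, n = 3), and all 45 other arrays lay below background. Member 2 had 12.14, 11.96 and 12.12 in endosperm, 7.37 and 8.02 in pericarp, and 6.13, 6.43 and 6.73 in stem at stage 59, with its remaining arrays below background. Member 4 varied most within endosperm, at 7.66, 10.04 and 10.5, and was at most 4.51 elsewhere. The range over the 3 endosperm arrays had a median of 0.49 over the members, and it passed 1 for 8 of them.

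The endosperm arrays did not stand level on the members. Endosperm replicate 3 was the highest of the 3 for 41 members, and the median of replicate 3 minus replicate 1 was 0.35, against 0 over all tested probe sets. The median of replicate 3 minus replicate 2 was 0.39, against -0.02.

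Outside endosperm, 9 members were below background on all 45 arrays: ranks 1, 3, 4, 5, 6, 19, 34, 38 and 40. At the other end, 6 members had all 15 other group means above background. Member 9 was one of these, with 12.62, 12.46 and 12.94 in endosperm, 10.08, 10.03 and 9.94 in root and 9.27, 9.15 and 9.44 in stem at stage 45. Its lowest group was embryo, at 6.16, 6.48 and 6.31. The difference between the highest and lowest of the 15 other group means had a median of 3.09 over the members; it was 0.685 for member 19, which was dim throughout, and 7.63 for member 47.

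**Figure D2:**
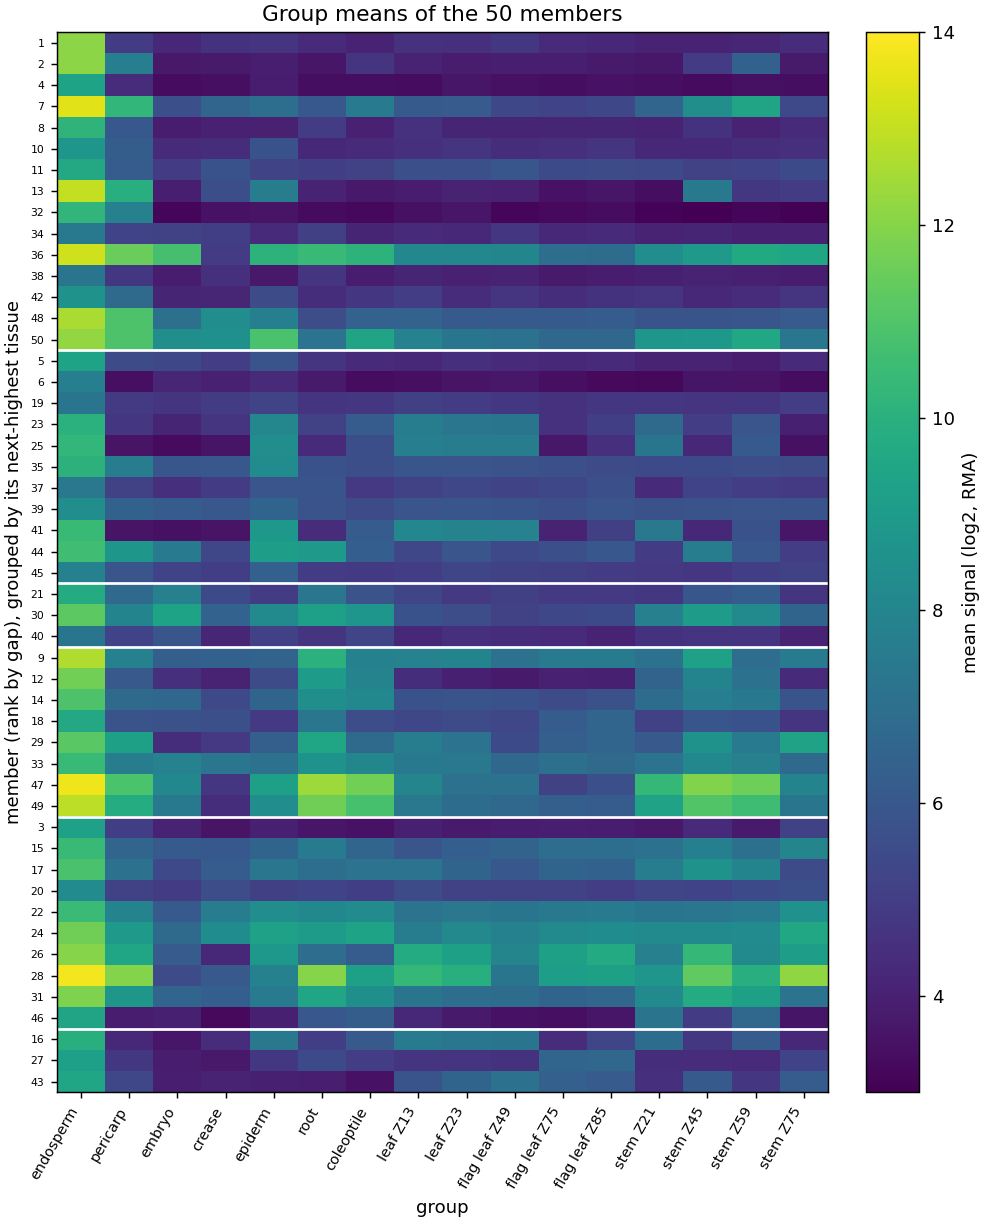
Mean signal (log2, RMA; colour) of each of the 50 members (rows, grouped by the group with the next-highest mean) in the 16 groups (columns). The endosperm column is high in every row, while the other columns differ between rows: 15 members were next highest in pericarp, 11 in epiderm, 3 in embryo and 21 in a vegetative group.

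The groups next in level after endosperm were the coat layers. Over the 50 members, the median of the group means was 6.50 in pericarp and 6.43 in epiderm, then 5.94 in stem at stage 59, with the other vegetative groups between 5.15 and 5.77, embryo at 5.18 and crease lowest at 4.96. Means were above background for 30 members in pericarp, 27 in epiderm, 17 in embryo and 13 in crease. In the vegetative groups 16 to 24 members were above it. Pericarp had the next-highest mean for 15 members and epiderm for 11. Root had it for 8, stem at stage 75 for 6, embryo for 3, and crease for none. The medians of pericarp and epiderm, neighbours in this order, lay closer together than the 2 pericarp arrays, which differed by a median of 0.225.

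**Figure D3:**
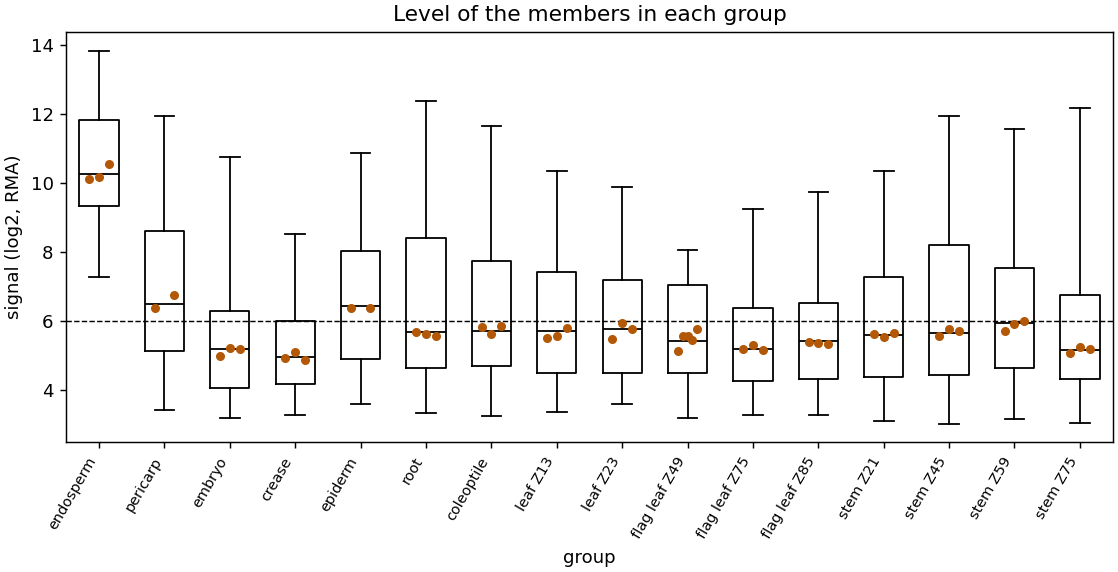
Signal (log2, RMA) of the 50 members in each of the 16 groups, as the box of the member means (line at the median, box over the middle 50%, whiskers to the extremes), with a point for the members' median on each array and a dashed line at the background level of 5.99. Endosperm lies above the line for every member (median 10.26), and the medians of pericarp (6.50) and epiderm (6.43) are the only others above it.

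Among the 30 members with a pericarp mean above background, the pericarp signal on the linear scale was between 2.07% and 41.8% of the endosperm signal, with a median of 13.9%. Member 12 stood at the low end, with 5.52 and 6.64 in pericarp against 11.41, 11.75 and 11.86 in endosperm. Member 50 stood at the high end, with 10.89 and 11 in pericarp against 12.39, 12.21 and 12.01. The gap caps this share from above. The other 20 members had pericarp means at or below background, which bounds the share from above: at most 1.47% for member 1 and at most 4.66% for member 41. The share of the endosperm signal read in pericarp thus differed between members, and the cause of that was not tested. Pericarp replicate 2 was higher than pericarp replicate 1 for 39 members and lower for 11. Over all tested probe sets the median difference was 0, and 49.7% were higher in replicate 2.

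Pericarp was then compared with the other tissues in a limma fit of the 45 arrays other than endosperm. A call needed an adjusted p under 0.05 (Benjamini-Hochberg, over all 61115) and a difference of at least 1 on the log2 scale. Against the mean of embryo, crease and epiderm, pericarp was higher for 21 of the 50 members and lower for 2, while 5.63% of all tested probe sets were called higher and 4.12% lower. The difference had a median of 0.81 over the members and -0.06 over all probe sets. Since every member is bright in endosperm, a further background is given by the 20980 probe sets with an endosperm mean above 5.99, of which 13.9% were higher and 5.72% lower. Of the 21 higher members, 2 had both sides below background. The count of 2 lower became 1 when pericarp replicate 1 was left out and 4 when no fold minimum was asked.

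Member 28 (Ta.5650.2.S1_x_at) had the widest excess of pericarp over the other 3 tissues. It was read at 11.55 and 12.34 in pericarp, 5.39, 5.26 and 5.88 in embryo, 5.92, 6.51 and 5.73 in crease, and 8.49 and 7.21 in epiderm. Both pericarp arrays lay above all 8 of the others. The difference was 5.47 (SE 0.33, limma adjusted p = 4.34e-16). Member 13 had 9.37 and 10.49 in pericarp, 7.38 and 7.96 in epiderm, 5.48, 6.12 and 5.31 in crease, and 3.98, 3.73 and 4.01 in embryo. Its arrays again did not overlap, and pericarp exceeded the mean of the others by 4.19 (SE 0.282, limma adjusted p = 1.05e-14). That mean was 5.74, below background, so the size of this difference is not a reliable fold.

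Member 32 was read outside endosperm in pericarp alone. It gave 9.32, 10.88 and 10.49 in endosperm, 7.68 and 7.91 in pericarp, and no more than 4.78 on the 43 remaining arrays, all below background. Since its dimmer side was below background, pericarp was at least 3.49-fold above the other seed tissues (limma adjusted p = 2.57e-18). Pericarp arrays lay above every other array except endosperm for 9 members, against 0.705% of all tested probe sets.

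Embryo is the comparison in which RNA extraction did not differ. Pericarp was higher than embryo for 26 members and lower for 2, against 8.15% and 10.6% of all tested probe sets, and 19.5% and 16.8% of those above background in endosperm. The median difference was 1.02 over the members and -0.01 over all probe sets, and the sign was positive for 44 of the 50. Of the 26, 3 had both tissues below background and 11 had embryo alone below it. Member 28 was at least 62-fold higher in pericarp (limma adjusted p = 1.21e-16), member 13 at least 15.3-fold (8.56e-18) and member 29 at least 9.58-fold (1.98e-12). Members 28 and 29 share part of their IDs, and both carry the suffix for cross-binding transcripts.

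The 2 members lower in pericarp than in embryo were ranks 30 and 21. Member 30 (Ta.11470.1.A1_at) had 8.02 and 7.87 in pericarp and 9.24, 9.38 and 9.53 in embryo. The arrays did not overlap, and the difference was -1.44 (SE 0.309, limma adjusted p = 0.000258). Member 21 had 6.52 and 7 in pericarp and 7.93, 7.79 and 7.59 in embryo, a difference of -1.01 (SE 0.254, limma adjusted p = 0.00164). This call sits at the fold minimum: the difference was -0.99 with arrays centred on their medians, -0.94 after quantile normalization, -0.93 without embryo replicate 1, and -0.77 without pericarp replicate 1, where the limma adjusted p was 0.0747. Centring on the hybridization controls moved the median of all probe sets by -0.415 in this comparison, and gave 21 members higher and 4 lower. Over all 61115 probe sets, that setting called 3552 higher and 10685 lower.

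Against crease, pericarp was higher for 26 members and lower for 0 by limma, against 9.18% and 7.29% of all tested probe sets and 22.3% and 12.5% of those above background in endosperm. At an unadjusted limma p under 0.05, 33 members were higher and 1 was lower, and 24834 of all tested probe sets passed in either direction. Crease was wholly below background for 14 of the 26, and both tissues were for another 3. Member 36 had 11.4 and 11.61 in pericarp and 5.2, 5.16 and 4.56 in crease, so that pericarp was at least 45.7-fold higher (limma adjusted p = 6.63e-16). Outside crease this member was above background on every array, with 10.94, 10.87 and 10.46 in embryo. Member 47 had 10.7 and 11.03 in pericarp and 5.08, 4.38 and 4.78 in crease, at least 29.3-fold (limma adjusted p = 7.76e-08).

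Against epiderm, the layer outside it, pericarp was higher for 15 members and lower for 4, against 5.22% and 5.56% of all tested probe sets and 11.3% and 10.3% of those above background in endosperm. The median difference was 0.52 over the members and -0.02 over all probe sets. Members 32 and 2 were at least 3.49-fold and 3.26-fold higher in pericarp (limma adjusted p = 1.18e-14 and 4.22e-12). Member 28 was 4.10 higher (SE 0.416, limma adjusted p = 7.58e-10). The 4 lower members, ranks 16, 23, 25 and 41, all carry 1 ID stem and were below background in pericarp. Member 41 (Ta.11120.1.S1_a_at) had 3.57 and 3.61 in pericarp and 8.63 and 9.11 in epiderm, at least 7.36-fold less in pericarp (limma adjusted p = 1.92e-11). The same 4 were called lower in pericarp than in the vegetative mean, but there both means lay below background, so no fold is given.

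Over the vegetative mean, pericarp was higher for 19 members and lower for 4, against 7.23% and 8.46% of all tested probe sets and 17.5% and 11.6% of those above background in endosperm. Member 13 was 5.61 higher (SE 0.259, limma adjusted p = 5.89e-20). Its vegetative mean of 4.32 lay below background, with stem at stage 45 alone above it at 7.43, so 5.61 is not a reliable fold. Member 48 had 10.45 and 11.39 in pericarp, 8.73, 8.24 and 8.17 in crease, 7.83 and 7.68 in epiderm, and between 5.53 and 6.8 in the vegetative groups, and was 4.83 higher in pericarp than there (SE 0.184, limma adjusted p = 1.4e-22). Its means fell in the order endosperm, pericarp, crease, epiderm, embryo, with every vegetative group below them. Extraction and tissue cannot be told apart in the comparisons of pericarp with crease, epiderm and the vegetative groups.

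**Figure D4:**
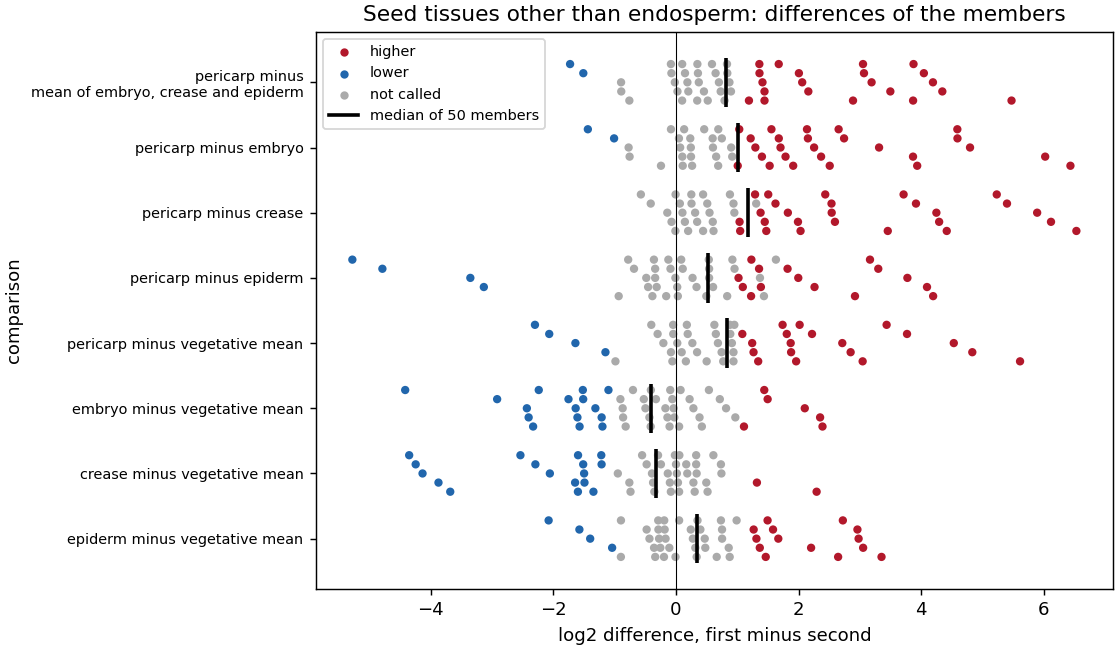
Log2 difference of each of the 50 members (points) in the 8 comparisons of seed tissues other than endosperm, first group minus second, with members called higher in red, lower in blue and not called in grey, and a black bar at the median of the 50. In the 5 comparisons of pericarp most points lie to the right of 0, with member medians from 0.52 to 1.17, and in those of embryo and crease with the vegetative mean most lie to the left.

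Embryo, crease and epiderm were each set against the vegetative mean too. Embryo differed in extraction from every vegetative group, and crease and epiderm from root and coleoptile. Extraction is therefore not separated from tissue in these comparisons. Epiderm was higher for 14 members and lower for 4, against 8.04% and 7.7% of all tested probe sets. Of those above background in endosperm, 19.4% were higher and 11.2% lower, against 28% and 8% of the members. Member 44 had 9.05 and 9.26 in epiderm, 8.78 and 8.85 in pericarp, and 8.7, 9.04 and 8.94 in root, while every other vegetative array was at 7.89 or lower. It was 3.05 higher in epiderm than in the vegetative mean (SE 0.213, limma adjusted p = 9.64e-15). Member 50 had 10.91 and 10.81 in epiderm, overlapping its 2 pericarp arrays, and was 2.96 higher (SE 0.262, limma adjusted p = 5.91e-12). Epiderm arrays lay above every other array except endosperm for 5 members, against 2.53% of all probe sets.

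Embryo was lower than the vegetative mean for 16 members and higher for 6, against 9.74% and 11% of all tested probe sets. Of those above background in endosperm, 17.6% were lower and 22.7% higher, against 32% and 12% of the members. Of the 16 lower members, 10 had embryo alone below background, and 2 of the 6 higher had both sides below it. Against the mean of the AC Certa vegetative groups alone, 14 members were lower and 6 higher. With the hybridization controls as the reference, the counts were 9 lower and 11 higher, and the median of all probe sets moved by 0.592. Over all 61115 probe sets, that setting called 3598 lower and 13232 higher. Member 28 was at least 15.3-fold lower in embryo (limma adjusted p = 1.22e-17), and member 21 was 2.35 higher (SE 0.168, limma adjusted p = 9.19e-15). For member 21 the vegetative mean was 5.42, below background. Crease was lower than the vegetative mean for 17 members and higher for 2, ranks 13 and 48, against 12.5% and 9.79% of all tested probe sets and 23.3% and 21.1% of those above background in endosperm. Member 26 had 4.77, 4.36 and 3.61 in crease and lay between 6.07 and 10.38 in the vegetative groups, at least 6.1-fold lower in crease (limma adjusted p = 2.68e-20). Crease had the lowest median of the 16 groups for these members.

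The 50 members carried 41 distinct ID stems, the part of the ID before its copy number, and 15 members shared a stem with another. Members of a stem are not independent of each other. Of the 50, 24% had the suffix that marks probes which may bind other transcripts too, against 11.1% of all tested probe sets, and 62% had a plain ID, with no suffix for cross-binding, shared or alternative transcripts, against 79.2%. Stems were shared by ranks 16, 23, 25 and 41, by 31, 47 and 49, and by the pairs 28 and 29, 22 and 24, 10 and 32, and 14 and 33.

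Outside endosperm, the 4 members of the first stem had their highest means in epiderm, leaf at stages 13 and 23 and flag leaf at stage 49. In epiderm, member 41 had 8.63 and 9.11. Member 41 was read at 7.78, 8.13 and 8.5 in leaf at stage 13, at 7.54, 8.18, 7.66, 8.23 and 7.8 in flag leaf at stage 49, and at 6.79, 7.34 and 8.09 in stem at stage 21. In flag leaf it was below background at stage 75 (4.08, 4.29 and 3.87) and at stage 85 (5.38, 5.16 and 4.65). Stem gave 3.65, 5.5 and 3.63 at stage 45, then 5.14, 5.81 and 6.4 at stage 59. By stage 75 stem was below background, at 4.25, 3.18 and 3.55, so the course in stem was not a steady fall. Member 41 thus had 1 stem array above background at stage 59. It was also below background in embryo, crease, pericarp and root. Over the 45 other arrays the correlation between these members was 0.962 to 0.984. Member 41 carries the suffix for alternative transcripts, and the other members of this ID stem carry that for cross-binding transcripts. The remaining probe set of the ID stem, its only plain one, was not a member: its lowest endosperm array was 0.97 below its highest other array. Its group means were all below background, with 4.71 in endosperm, 4.44 in epiderm and 5.15 in flag leaf at stage 49. The pattern of the 4 members was thus not read above background on the plain probe set.

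The 3 members of the second stem were bright in root, coleoptile, pericarp and stem up to stage 59. Member 47 had 12.48, 12.42 and 12.22 in root, 11.78, 11.85 and 11.33 in coleoptile, and 11.79, 12.45 and 11.57 in stem at stage 45. It had 10.7 and 11.03 in pericarp, against 13.55, 13.74 and 13.88 in endosperm. It was below background in crease and low in old flag leaf, with 5.05, 6.17 and 4.25 at stage 75 and 4.99, 7 and 5.02 at stage 85. All 3 probe sets of this stem were members, and correlated at 0.917 to 0.975 over the 45 other arrays. The pair of ranks 28 and 29 had another pattern, with root at 12.01, 12.06 and 11.98 and stem at stage 75 at 12.11, 12.28 and 12.1 for member 28. Their correlation was 0.969, and both carry the cross-binding suffix. Among the probe sets of their stem that were not members, the plain one averaged 6.88 in endosperm and 4.485 in pericarp, below background. The one with the suffix for alternative transcripts averaged 13.82 in endosperm and 12.22 in pericarp. The pairs 10 and 32 (0.752) and 14 and 33 (0.738) were less alike.

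**Figure D5:**
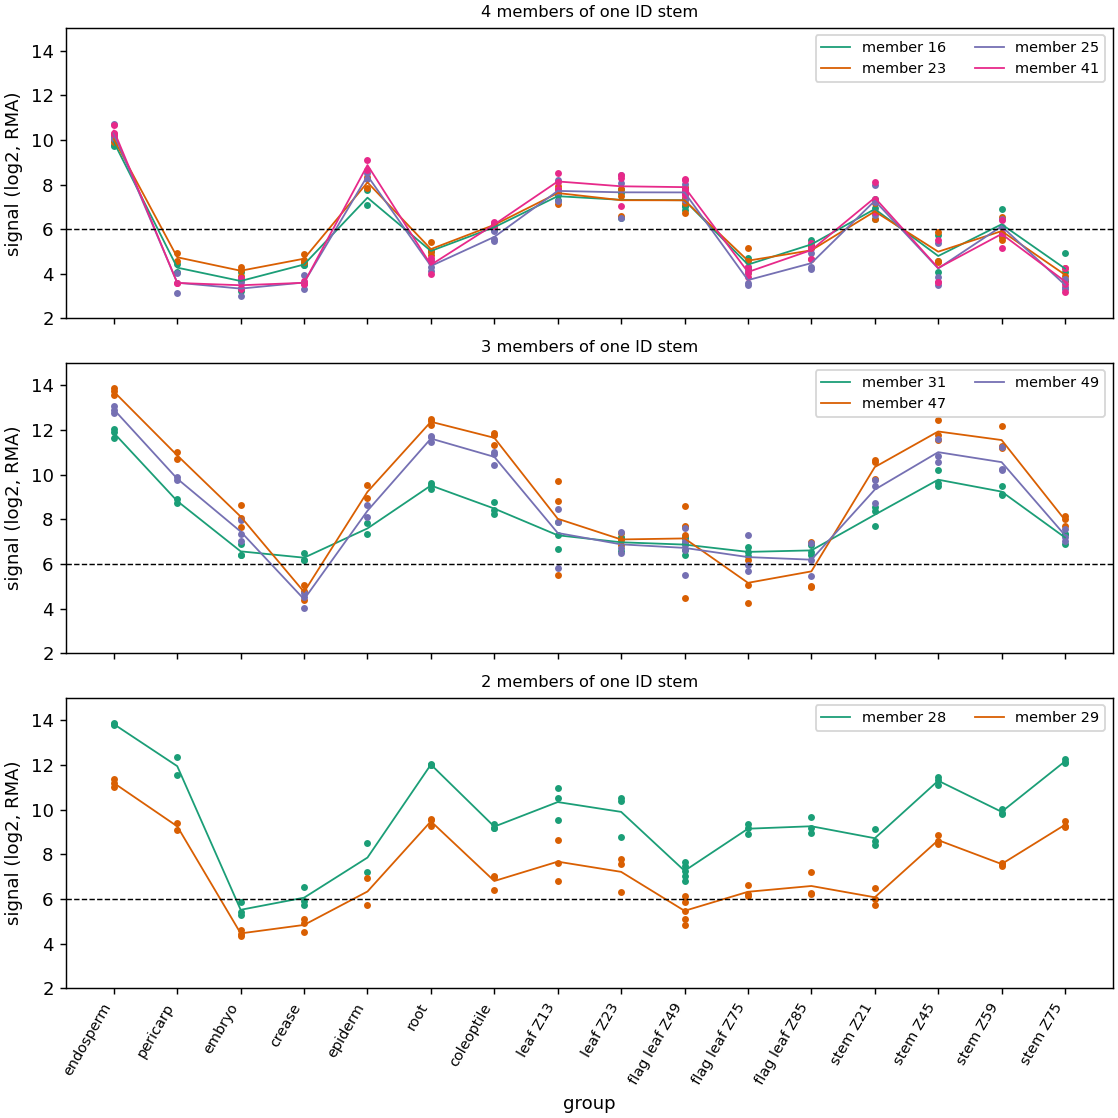
Mean signal (log2, RMA; lines) and single arrays (points) in the 16 groups for the members that share the stems of ranks 16, 23, 25 and 41 (top), of 31, 47 and 49 (middle) and of 28 and 29 (bottom), with a dashed line at the background level of 5.99. The first set lies below the line in pericarp, embryo and crease and above it in epiderm and young leaf. The next is high in root, coleoptile, pericarp and stem up to stage 59 and low in crease. The last is high in pericarp, root and stem at stage 75.

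The shared patterns recur in the vegetative comparisons, whose counts therefore rest in part on several probe sets of 1 stem. From stem at stage 21 to stem at stage 75, 9 members rose and 14 fell, against 9.23% and 7.94% of all tested probe sets. Of the probe sets above background in endosperm 19.5% rose, about the 18% of the members, and 13.7% fell, against 28% of the members. Of the 9 rises, 2 had both stages below background, and 8 of the 14 falls had stage 75 alone below it. Member 28 rose by 3.45 (SE 0.34, limma adjusted p = 1.32e-10). Member 46 fell from 7.63, 6.99 and 7.11 to 3.6, 3.46 and 3.78, at least 2.38-fold (limma adjusted p = 2.48e-12). Members 16, 23, 25 and 41, which share a stem, were all among the 14.

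In flag leaf, from stage 49 to stage 85, the stage of the seed samples, 5 members rose and 5 fell, against 2.97% and 1.59% of all tested probe sets and 5.16% and 2.83% of those above background in endosperm. Members 16, 23, 25 and 41 made up 4 of the falls, and member 25 fell at least 3.15-fold (limma adjusted p = 1.13e-08). Member 26 rose from 8.13, 7.77, 7.52, 8.76 and 7.81 to 9.52, 9.85 and 9.86, a difference of 1.75 (SE 0.249, limma adjusted p = 2.5e-06). Members 28 and 29 rose as well.

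Root was higher than coleoptile for 10 members and lower for 6, against 6.94% and 6.59% of all tested probe sets. Of those above background in endosperm, 10.8% were higher and 11.8% lower, against 20% and 12% of the members. With the hybridization controls as the reference the counts were 14 and 3, against 7219 and 3102 of all 61115 probe sets. Member 28 was 2.78 higher in root (SE 0.34, limma adjusted p = 1.82e-08), and member 44, at 5.95, 6.44 and 6.48 in coleoptile, was 2.60 higher (SE 0.239, limma adjusted p = 1.93e-11). Member 50 was 2.24 lower in root, where it had 7, 7.07 and 7.48 against 9.31, 9.51 and 9.44 in coleoptile (limma difference -2.24, SE 0.294, adjusted p = 8.53e-08). Root arrays lay above every other array except endosperm for 3 members, against 3.89% of all probe sets.

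The members did not follow 1 common pattern outside endosperm. Over the 15 other group means, Pearson's r between members had a median of 0.156 over 1225 pairs, with quartiles of -0.0924 and 0.413; the means share arrays and normalization, and stem mates are among the pairs. The same rule applied to the other seed tissues chose 23 probe sets for pericarp, 446 for embryo, 623 for crease and 163 for epiderm. In the pericarp set, endosperm had the next-highest mean for 14 of 23 (60.9%), against 15 of the 50 endosperm members (30%) with pericarp next. Endosperm was next for 38.7% of the epiderm set, 25.5% of the crease set and 2.91% of the embryo set.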

How the data were processed

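Triticale RNA was hybridised to Affymetrix wheat arrays, 48 in 16 groups. The deposited table holds log2 values made by the authors with RMA, per the submitters' processing notes. The software and its version were not given in the sources used here, and log base 2 was taken from the range of the values, 1.92 to 15. RMA evens out the arrays' distributions, which hides any change common to most RNAs. The number of arrays limits the precision. Of 61290 probe sets, 111 AFFX controls and 64 reporters were left out.

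Members were found by the rule on all arrays. All comparisons used limma 3.58.1 in R 4.3.3 on the 45 arrays of 15 groups other than endosperm, a mean per group, moderated variances (residual degrees of freedom 30, prior 5.6), two-sided tests and Benjamini-Hochberg adjustment over 61115 probe sets. The fit was first tested on simulated data. A group counted as below background when none of its arrays exceeded 5.99. Folds given as "at least" set each such array to 5.99, and no fold is given where both sides were below it. Both sides were also below it for 2 members called higher in pericarp than in epiderm and for 2 against the vegetative mean. The same held for 1 member called higher in epiderm than in that mean and 1 called lower in root than in coleoptile.

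The members, lists and tests were chosen with earlier results of these data known. Members named are those with the widest and narrowest gaps, the highest endosperm or pericarp means, the 3 largest called differences each way per comparison without overlapping arrays, those whose highest other array lies outside pericarp, and those sharing an ID stem. Ranks listed only beside a count were listed after their values were seen. At most 4 IDs are printed, because no gene names pair with the members, and sequences are not used here. The marker and gene lists could not be matched, except for purothionin. Same-numbered samples of compared groups deviated together with r of -0.0651 to 0.186, and only embryo and crease, which are averaged on the same side of 1 comparison, passed 0.1 in all 3 pairs (0.101, 0.106 and 0.186). The comparisons were fitted without the replicate number, and the fit with it is an alternative.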

Additional observations from a re-analysis of the deposited data

Results flagged for a closer look

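Flag leaf at stage 49 was the only group with 4 to 10 arrays, and it was searched for single arrays far from the other 4 on each of the 50 members. On 3 members 1 array stood apart, where chance, at about 1 in 20, gives 2.5 of 50. Member 2 read 4.57 on replicate 1 against 3.68 to 3.84 on the others, all below background. For member 14, replicate 2 read 6.23 against 5.57 to 5.76. Replicate 3 gave 7.49 for member 24, below the others at 7.88 to 7.92. The arrays concerned were not the same, and no result above turns on these values.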

How the results depend on the processing

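Of 369 counts under other settings, 349 stayed within 1.5 times the main count and 20 moved; of 830 differences of single members, 826 kept their call and direction, and 4, all of member 21 in pericarp against embryo, lost the call at -0.988, -0.943, -0.93 and -0.77. None reversed. Members lower in pericarp than in embryo numbered 1 with median centring, 1 with quantile normalization, 4 with the hybridization controls as reference, 4 with no fold minimum, and 1 to 2 with 1 replicate left out. For pericarp below the other seed tissues the range with 1 replicate left out was 1 to 3. With the hybridization controls, embryo against the vegetative mean gave 11 higher and 9 lower, and root below coleoptile 3. Over all 61115 probe sets these counts were 13232, 3598 and 3102, and for pericarp below embryo the count was 10685. With no fold minimum, pericarp was lower than the other seed tissues for 4 members, than crease for 1 and than epiderm for 7. In that setting pericarp was higher than the vegetative mean for 31, embryo for 11, crease for 8 and epiderm for 23. For counts with no fold minimum the share of all probe sets is not given here, so they are not read as results about the members. The number of members was 125 at a gap of 0.5, 14 at a gap of 2 and 104 without the pericarp arrays; it was 50 with median centring, 49 with quantile normalization and 59 with the hybridization controls, sharing 50, 48 and 45 with the main selection. Leaving out endosperm replicate 1, 2 or 3 gave 71, 61 or 52 members, and leaving out pericarp replicate 1 or 2 gave 50 or 60. The replicate block gave 25 members higher in pericarp than in embryo (26 without it) and 15 higher in epiderm than in the vegetative mean (14 without it), and equal counts elsewhere, including 21 and 2 for pericarp against the mean of the other seed tissues, where same-numbered embryo and crease samples deviated together. Pericarp and epiderm have 2 arrays each, and members near the background level have no reliable fold.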
